A study of Mus musculus with 6 samples.

Results

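The transcription factors described here are those that set up and maintain the macrophage lineage, *Spi1*, *Cebpa*, *Runx1*, *Cebpb*, *Cebpd*, *Maf*, *Klf4*, *Tfec* and *Bhlhe40*. They were taken by gene symbol from the table, and all 9 were found among its 55335 gene identifiers and were tested. They were measured by RNA-seq in 6 libraries of bone marrow-derived macrophages (BMDMs), which were grown from bone marrow cells for 7 days with 25 ng/ml M-CSF, the growth factor that drives marrow cells to become macrophages. The BMDMs carried the WT genotype in both groups. In 3 libraries they had been kept for 24 h with neutrophils from *Cd177* WT mice, and in the other 3 with neutrophils from *Cd177* KO mice, in both cases sorted with magnetic beads from spinal cord lesions at 3 dpi (days after contusion injury of the thoracic cord). The study used adult male mice, C57BL/6 for the WT, and the strain of the *Cd177*-/- mice and the number of mice behind one culture are not given in the sources used here. Macrophages were recovered as Ly6G- cells, and no library of BMDMs kept without neutrophils was analysed here. Values are FPKM, sequenced fragments scaled to the length of the transcript and to the size of the library, so that levels can be set side by side between genes.

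Macrophage identity rests on a small set of such factors. PU.1, the product of *Spi1*, opens the enhancers of myeloid genes together with the C/EBP family, of which C/EBPα acts during differentiation while C/EBPβ and C/EBPδ are rapidly induced by inflammatory stimuli. c-Maf is a factor of mature tissue macrophages and favours withdrawal from the cell cycle and expression of *Il10*, whereas Bhlhe40 restrains *Il10*.

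Among the factors, *Maf* and *Cebpd* rose and *Cebpb* and *Bhlhe40* fell. *Maf* was 3.79 times and *Cebpd* 3.04 times as high in the KO-labelled libraries as in the WT-labelled ones. *Cebpb* stood at 0.283 and *Bhlhe40* at 0.485 of the level in the WT-labelled libraries. *Spi1*, *Cebpa*, *Runx1*, *Klf4* and *Tfec* did not pass, and their mean levels in the KO-labelled libraries were between 0.81 and 1.13 times those in the WT-labelled libraries. In a limma fit of log2(FPKM + 0.5) across 13367 genes, with p-values adjusted by Benjamini-Hochberg over all of them, 2 of the 9 factors were higher and 2 lower, taking adjusted p-values under 0.05 as passing. Over all tested genes 27.1% were called higher, 10.5% lower and 37.6% in either direction, so a count of 4 in 9 (44.4%) lay near the background. By the threshold of the study, which asks for more than a 2-fold change at an unadjusted p-value under 0.05, the same 4 factors passed, where 11.1% of all tested genes did (6.68% higher and 4.43% lower). *Bhlhe40* lay at the edge of the 2-fold limit, with a log2 difference of -1.02. It fell short of that limit with a pseudocount of 1 (-0.99) and without KO replicate 3 (-0.96). With median-of-ratios scaling, which sets the typical gene to no change, 2 factors were called higher and 3 lower (*Runx1* was added), against 16.1% and 16.6% of all tested genes and 32.7% in either direction. Groups were apart, with no overlap, for 6 of the 9 factors (66.7%), against 51.9% of all tested genes.

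**Figure D1:**
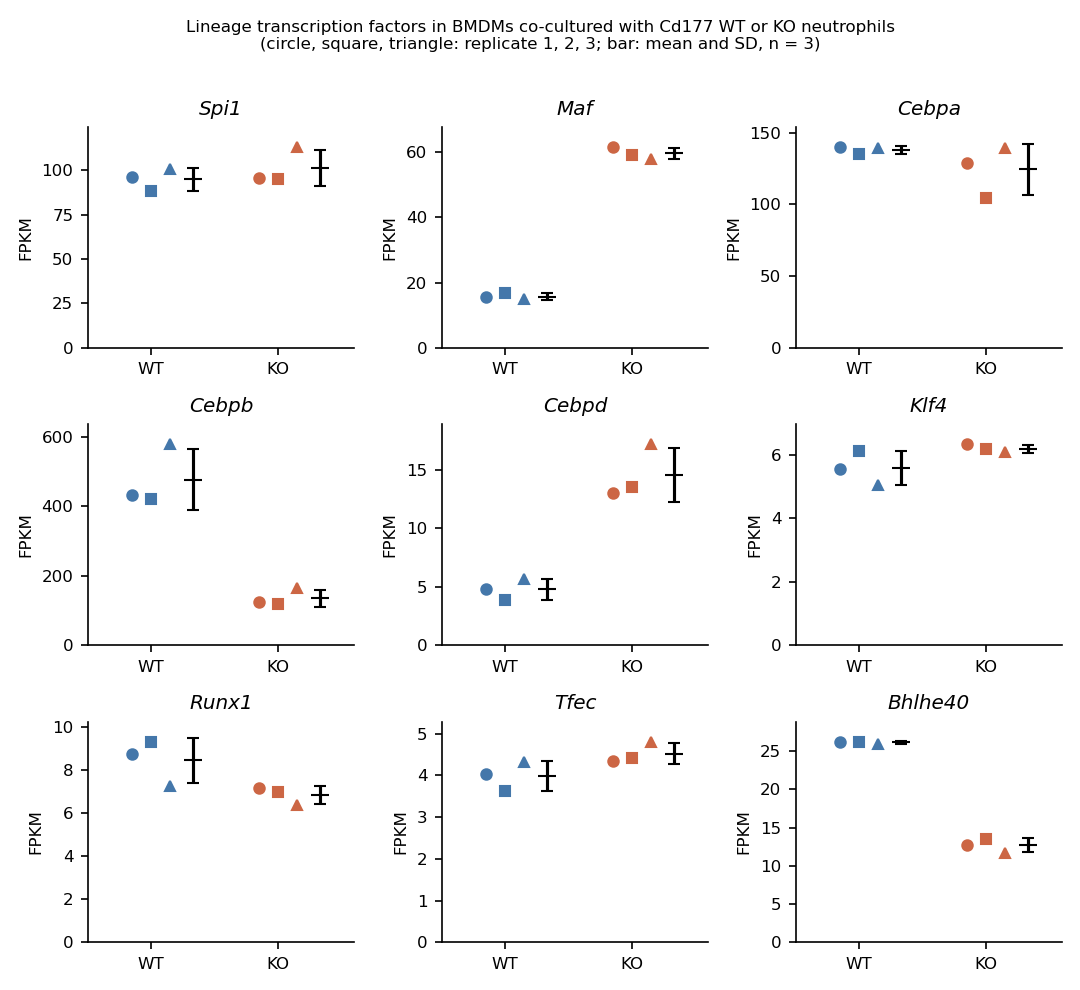
FPKM of the 9 factors in each library (y axis, from 0; each panel has its own scale), for BMDMs labelled as co-cultured with WT (blue) or KO (orange) neutrophils; markers are the 3 replicates and the black bar is the mean ± SD (n = 3). *Maf* and *Cebpd* lie higher and *Cebpb* and *Bhlhe40* lower in the KO-labelled libraries with wide gaps, while *Spi1*, *Cebpa* and *Klf4* overlap.

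All 18 genes of a list of macrophage identity were detected in every library. *Cd177* had 0.309 to 0.544 FPKM in the WT-labelled libraries and 1.79 to 2.28 FPKM in the KO-labelled ones, which runs against the labels of the neutrophil donors, so groups are named here as labelled. The median log2 difference of all tested genes was 0.19 with FPKM as deposited and -0.00046 after median-of-ratios scaling, and 72.0% and 49.3% of the called genes were higher, respectively, so changes are also given relative to this shift. Of 16 neutrophil markers, 13 were tested. In the KO-labelled libraries 11 of these rose and 1, *Mmp8*, fell, against 27.1% and 10.5% of all tested genes. The 16 markers summed to 202 to 262 FPKM in the WT-labelled libraries and 561 to 576 FPKM in the KO-labelled ones, with *S100a9*, *S100a8* and *Ngp* the most abundant. The sorting marker *Ly6g* was listed at 0 in all WT-labelled libraries and at 0.403 to 0.66 FPKM in the KO-labelled ones. The 7 B cell markers summed to 1.41 to 2.28 and 14.7 to 16.9 FPKM, almost all of it *Ighm*, *Cd79b* and *Ebf1*, with *Pax5* and *Cd79a* at or near 0. The 4 monocyte markers summed to 6.53 to 9.93 and 7.94 to 9.84 FPKM, but of the 3 tested *Ccr2* (log2 difference 1.68, adjusted p = 0.000773 from limma) and *Ly6c2* (1.02, adjusted p = 0.00458) rose and *Plac8*, the most abundant, fell (-0.61, adjusted p = 0.0308). The 4 mast cell and basophil markers summed to 14.7 to 26.4 and 6.53 to 7.54 FPKM, nearly all of it *Mcpt8*, with *Ms4a2* listed at 0 throughout. The 6 dendritic cell markers summed to 27.8 to 44.1 and 52.0 to 65.7 FPKM, with *Flt3* listed at 0, and nearly all of this was *Itgax*, which macrophages also express. The remaining dendritic cell markers averaged under 0.5 FPKM and were not tested. Of these, *Clec9a* (means of 0.541 and 0.0526 FPKM), *Xcr1* (0.271 and 0.0757) and *Ccr7* (0.0834 and 0) were lower in the KO-labelled libraries. *Zbtb46* was higher (0.113 and 0.306 FPKM). The 7 T and NK cell markers summed to 1.61 to 2.17 and 5.21 to 6.10 FPKM, most of it *Cd4*, which rose (log2 difference 1.43, adjusted p = 0.000376), with *Cd3d* at 0. The 6 spinal cord markers summed to 4.66 to 5.94 and 5.83 to 7.08 FPKM, most of it *Mbp*, with *Snap25* at 0. The 4 fibroblast markers summed to 290 to 431 and 327 to 379 FPKM, with *Col1a1*, the most abundant, not passing (log2 difference 0.11), while *Col3a1* (-0.97, adjusted p = 0.000197) and *Dcn* (-1.04, adjusted p = 0.00218) fell. In bulk libraries, fewer cells of a type and less RNA per cell cannot be told apart.

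*Spi1* encodes PU.1, the ETS factor without which the myeloid lineage does not form. It lies on chromosome 2 from 91082390 to 91115756 (GENCODE M21, GRCm38, as for all positions of genes here). It had 95.9, 88.1 and 100.5 FPKM in the WT-labelled libraries and 95.6, 95.3 and 113 FPKM in the KO-labelled ones. The groups overlapped, and KO replicate 3 stood above the other 5 libraries. Its log2 difference was 0.09 (95% interval -0.15 to 0.33, adjusted p = 0.512 from limma) with FPKM as deposited and -0.12 (-0.38 to 0.13, adjusted p = 0.431) with median-of-ratios scaling. Its relatives contributed little, since *Spib*, a factor of B cells and plasmacytoid dendritic cells, was listed at 0 in all libraries, and *Spic*, known from iron-recycling macrophages, had 1.84 to 3.33 FPKM. *Spi1* made up between 96.8% and 98.1% of the summed FPKM of these 3 genes in every library.

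*Cebpa*, which directs progenitors towards the granulocyte and monocyte lineages, had 139.8, 135 and 139 FPKM in the WT-labelled libraries and 129, 105 and 139.5 FPKM in the KO-labelled ones. The groups overlapped, because KO replicate 3 lay within the range of the WT-labelled libraries while KO replicate 2 lay lowest of all. The log2 difference was -0.16 (95% interval -0.44 to 0.12, adjusted p = 0.319 from limma) and -0.38 with median-of-ratios scaling (-0.66 to -0.09, adjusted p = 0.0538). The antisense gene *Gm45091* overlaps *Cebpa* and had at most 1.49 FPKM.

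*Runx1*, which is needed for blood stem cells to emerge and later acts beside PU.1 in myeloid cells, had 8.78, 9.32 and 7.26 FPKM in the WT-labelled libraries and 7.18, 6.98 and 6.38 FPKM in the KO-labelled ones. The groups did not overlap, but WT replicate 3 lay only just above KO replicate 1. The log2 difference of -0.28 (standard error 0.12, 95% interval -0.56 to -0.01) had an adjusted p-value of 0.10 from limma and did not pass. It passed with median-of-ratios scaling (-0.48, adjusted p = 0.0154), with quantile normalization (-0.43, adjusted p = 0.0169) and without WT replicate 3 (-0.38, adjusted p = 0.0162). It also passed with the replicate number as a block (-0.28, adjusted p = 0.0469), and did not pass with upper-quartile scaling (adjusted p = 0.0504) or as TPM (adjusted p = 0.22), so that the call on *Runx1* depended on the scaling, the block and WT replicate 3. *Runx2* and *Runx3* had lower levels, with means of 2.53 and 3.51 FPKM in the WT-labelled libraries and 2.02 and 2.47 FPKM in the KO-labelled ones. They did not pass with FPKM as deposited (adjusted p = 0.235 and 0.0967 from limma). *Runx3* passed with median-of-ratios scaling (log2 difference -0.60, adjusted p = 0.0301) and with the replicate number as a block (adjusted p = 0.0366). Over the other fits the lowest adjusted p-values from limma were 0.0307 for *Runx2* and 0.00719 for *Runx3*. *Runx1* held 58.5% ± 1.96 of the summed FPKM of the 3 RUNX genes in the WT-labelled libraries and 60.5% ± 1.49 in the KO-labelled ones (mean ± SD, n = 3 per group), a difference within the spread. Their common partner *Cbfb*, which stabilises RUNX proteins on DNA, rose from 24.4 ± 0.619 to 33.5 ± 1.21 FPKM (mean ± SD, n = 3 per group), with a log2 difference of 0.45 (adjusted p = 0.00387 from limma). With median-of-ratios scaling *Cbfb* had an adjusted p-value of 0.06.

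*Cebpb*, whose product drives acute phase and cytokine genes and is itself raised at transcription by cAMP and inflammatory signals, was the most abundant of the 9 factors in the WT-labelled libraries. It had 431, 421 and 578 FPKM there and 125, 117 and 163 FPKM in the KO-labelled libraries. Every library labelled WT lay far above every library labelled KO. The log2 difference was -1.82 (standard error 0.17, adjusted p = 0.00037 from limma), lower than in all but 1.74% of the tested genes, and -2.03 with median-of-ratios scaling. *Cebpb* is a gene of 1 exon on chromosome 2 from 167688915 to 167690418, and *Tmem189* overlaps it on the opposite strand. *Tmem189* fell from 64.5 ± 6.49 to 39.5 ± 6.99 FPKM (mean ± SD, n = 3 per group, log2 difference -0.71, adjusted p = 0.00999), and reads of the pair cannot be told apart where the counting did not use strand, which is not stated.

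*Cebpd*, an early response gene of the same family, was among the least abundant factors in the WT-labelled libraries. It had 4.83, 3.88 and 5.65 FPKM there and 12.99, 13.5 and 17.2 FPKM in the KO-labelled libraries. All 3 KO-labelled libraries lay above all 3 WT-labelled ones by more than the spread within either group. The log2 difference was 1.51 (standard error 0.16, adjusted p = 0.000594 from limma) and 1.31 with median-of-ratios scaling. *Spidr*, which overlaps *Cebpd* on the opposite strand, had 1.79 to 2.56 FPKM and did not pass (adjusted p = 0.283). *Cebpe*, which drives the late granule genes of neutrophils, also rose, from 0.314 ± 0.084 to 1.39 ± 0.42 FPKM (mean ± SD, n = 3 per group), with a log2 difference of 1.20 (adjusted p = 0.00336). *Cebpg*, a dimer partner without an activating domain, had 13.3 ± 2.33 and 11.8 ± 1.49 FPKM and did not pass. Neutrophils also express *Cebpd*, *Cebpe* and *Cebpb*, and the neutrophil markers rose together with *Cebpd* and *Cebpe* while *Cebpb* moved the other way. The part of neutrophil RNA in the levels of *Cebpd* and *Cebpe* was not tested.

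The makeup of the C/EBP family differed between the groups, with no overlap in the share of any of its genes. These shares are parts of one sum, so the fall of *Cebpb* alone raises the shares of the others. By level, *Cebpa* and *Cebpg* did not pass. The summed FPKM of *Cebpa*, *Cebpb*, *Cebpd*, *Cebpe* and *Cebpg* went from 633 ± 91.8 in the WT-labelled libraries to 287 ± 43.9 in the KO-labelled ones (mean ± SD, n = 3 per group). *Cebpb* held 73.2%, 73.7% and 78.2% of this sum in the WT-labelled libraries and 44.8%, 47.2% and 48.8% in the KO-labelled ones. *Cebpa* held 18.9% to 23.7% in the WT-labelled libraries and 41.7% to 46.1% in the KO-labelled ones, which brought it level with *Cebpb*. *Cebpd* went from under 1% (0.68% to 0.819%) to between 4.65% and 5.45%. The log2 ratio of *Cebpb* to *Cebpa*, which no scaling between libraries can alter beyond the pseudocount, was 1.77 ± 0.24 in the WT-labelled libraries and 0.11 ± 0.14 in the KO-labelled ones (mean ± SD, n = 3 per group). The difference of -1.65 had p = 0.1 in an exact two-sided permutation test over libraries, the smallest value that 3 against 3 libraries can give.

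**Figure D2:**
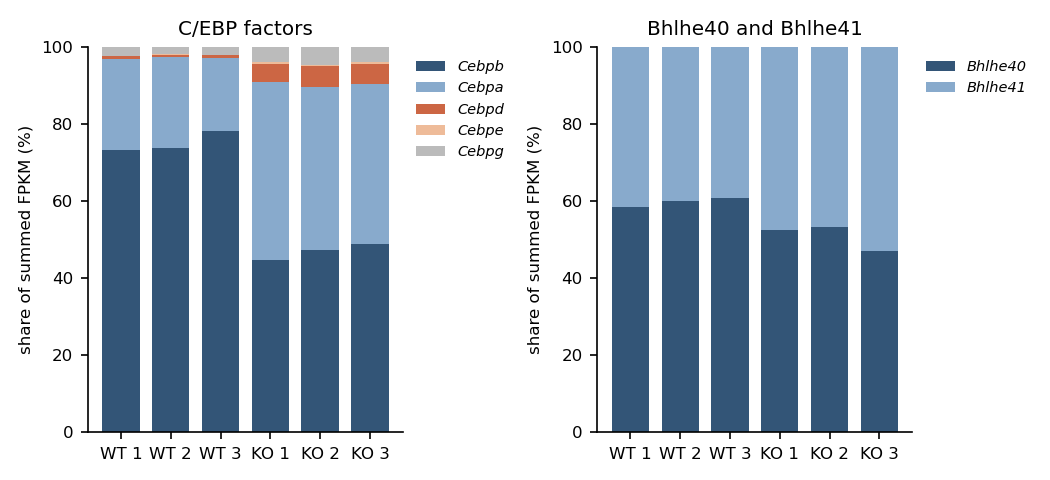
Share of each gene in the summed FPKM of the 5 C/EBP genes (left) and of *Bhlhe40* and *Bhlhe41* (right), in percent, for each of the 6 libraries as labelled. The *Cebpb* segment shrinks from at least 73.2% to at most 48.8%, and the *Bhlhe40* segment from at least 58.6% to at most 53.4%.

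The promoters of 5 of the factors could be matched to RefSeq (GRCm38.p6), namely *Cebpa*, *Cebpb*, *Klf4*, *Tfec* and *Runx1*, the last with 2 start sites. No entry was matched for *Spi1*, *Maf*, *Cebpd* and *Bhlhe40*. The 250 bases before the start site are shown for *Cebpb*, which fell, for *Cebpa*, which did not pass the test and shares its binding site, and for *Tfec*, whose expression is largely restricted to macrophages. Capitals mark TGACG (the half-site bound by CREB and ATF factors), TATAAA (the TATA box) and GGAAGT (the core bound by PU.1 and other ETS factors), each searched on both strands, and no match overlapped a match to another motif. The windows are chr2:167688665-167688914 (plus strand), chr7:35119043-35119292 (plus strand) and chr6:16898442-16898691 (minus strand), written 5′ to 3′.
*Cebpb*: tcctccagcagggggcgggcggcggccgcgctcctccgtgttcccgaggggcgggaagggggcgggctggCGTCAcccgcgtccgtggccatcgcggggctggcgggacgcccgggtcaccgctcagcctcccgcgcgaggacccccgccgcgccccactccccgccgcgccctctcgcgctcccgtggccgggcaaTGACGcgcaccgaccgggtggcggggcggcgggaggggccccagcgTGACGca
*Cebpa*: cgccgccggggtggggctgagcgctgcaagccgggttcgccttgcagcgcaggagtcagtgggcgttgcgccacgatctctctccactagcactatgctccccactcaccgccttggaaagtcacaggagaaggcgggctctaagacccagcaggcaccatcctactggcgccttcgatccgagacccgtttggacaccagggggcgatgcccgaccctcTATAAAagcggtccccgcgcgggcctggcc
*Tfec*: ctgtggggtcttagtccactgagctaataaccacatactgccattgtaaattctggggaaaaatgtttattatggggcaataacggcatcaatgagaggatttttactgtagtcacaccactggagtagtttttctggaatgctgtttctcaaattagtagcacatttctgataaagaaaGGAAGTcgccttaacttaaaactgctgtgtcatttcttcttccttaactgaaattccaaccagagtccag
The *Cebpb* window held 3 copies of TGACG, which 0.688% of all 32851 RefSeq windows of this length reach, while 17.8% hold at least 1. The *Cebpa* window held none of these and 1 TATAAA, present in 12.4% of all windows. The *Tfec* window held 1 GGAAGT, present in 19.7%, and 1 TGTGGT, the letters bound by RUNX factors, present in 14.05%. TTGCNNAA, the site of C/EBP factors themselves (9.56% of all windows), TGANTCA, the AP-1 site (6.75%), and TTCNNNGAA, the GAS-like site of STAT factors (7.02%), occurred in none of the 6 windows of the factors. CACGTG, the E-box that MiT/TFE and Bhlhe40 proteins can bind (6.02% of all windows), occurred once in *Klf4* and once in the upstream start of *Runx1*. The base composition differed widely, with 81.6% G and C in the *Cebpb* window, 66.4% in that of *Cebpa* and 39.2% in that of *Tfec*, where the median of all windows was 52.4%. The shares of all windows given above were not matched for base composition. These matches describe letters in the windows and not bound sites.

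*Maf* encodes c-Maf, and its rise was the largest of the 9 factors. The gene lies on chromosome 8 from 115682942 to 115707794. It had 15.5, 16.8 and 14.8 FPKM in the WT-labelled libraries and 61.5, 59.1 and 58.0 FPKM in the KO-labelled ones. The spread within each group was small beside the gap between them, at SDs of 0.997 and 1.77 FPKM. The log2 difference was 1.89 (standard error 0.08, adjusted p = 1.13e-05 from limma), higher than in 99.1% of the tested genes, and 1.68 with median-of-ratios scaling. The antisense gene *Gm15655*, which overlaps *Maf*, had at most 0.0976 FPKM in any library.

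Of the relatives of *Maf*, *Nrl*, a factor of the retina, was listed at 0 in all libraries. The small Maf factors, which lack an activating domain, had *Mafk* lower at 15.7 ± 1.71 and 8.76 ± 0.607 FPKM (mean ± SD, n = 3 per group, log2 difference -0.81, adjusted p = 0.00154) and *Mafg* at 30.1 ± 2.15 and 25.8 ± 1.61 FPKM without passing (adjusted p = 0.109). With median-of-ratios scaling *Mafg* passed as lower (log2 difference -0.43, adjusted p = 0.0119 from limma).

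*Bhlhe40*, a repressor of the basic helix-loop-helix class, lies on chromosome 6 from 108660629 to 108666925. It had 26.2, 26.2 and 25.9 FPKM in the WT-labelled libraries and 12.8, 13.5 and 11.7 FPKM in the KO-labelled ones. All KO-labelled libraries lay far below the WT-labelled ones, which were nearly equal. The log2 difference was -1.02 (standard error 0.08, adjusted p = 0.000199 from limma) and -1.23 with median-of-ratios scaling. Its relative *Bhlhe41*, with which it shares functions in macrophage proliferation, fell less, from 17.5 ± 0.92 to 12.2 ± 0.822 FPKM (mean ± SD, n = 3 per group), with a log2 difference of -0.51 (adjusted p = 0.00481). *Bhlhe40* held 58.6% to 60.8% of the sum of both in the WT-labelled libraries and 47.2% to 53.4% in the KO-labelled ones.

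*Klf4*, a zinc finger factor of monocyte differentiation, had 5.57, 6.12 and 5.04 FPKM in the WT-labelled libraries and 6.32, 6.17 and 6.07 FPKM in the KO-labelled ones, and the groups overlapped. Its log2 difference was 0.14 (95% interval -0.09 to 0.38, adjusted p = 0.296 from limma) and had the opposite sign with median-of-ratios scaling (-0.06, interval -0.28 to 0.17). *Klf2*, which restrains inflammatory activation of monocytes, rose from 7.17 ± 0.916 to 10.7 ± 1.11 FPKM (mean ± SD, n = 3 per group, log2 difference 0.56, adjusted p = 0.0138), and with median-of-ratios scaling its adjusted p-value was 0.0851. *Klf6* had a log2 difference of 0.20 and *Klf13* of 0.34, and neither passed.

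*Tfec*, the macrophage member of the MiT/TFE family, was the least abundant of the 9 factors in both groups. It had 4.04, 3.62 and 4.33 FPKM in the WT-labelled libraries and 4.35, 4.41 and 4.81 FPKM in the KO-labelled ones. The groups did not overlap, yet WT replicate 3 and KO replicate 1 nearly met. The log2 difference of 0.16 (95% interval -0.08 to 0.41, adjusted p = 0.256 from limma) did not pass and was -0.03 with median-of-ratios scaling. Other members of its family did pass, *Mitf* with 8.51 ± 0.855 and 12.9 ± 0.0739 FPKM (log2 difference 0.57, adjusted p = 0.00397) and *Tfeb*, the regulator of lysosomal genes, with 3.53 ± 0.294 and 6.496 ± 1.02 FPKM (mean ± SD, n = 3 per group, log2 difference 0.79, adjusted p = 0.00446). Both passed with median-of-ratios scaling too (adjusted p = 0.0224 and 0.0137). *Tfe3* had a log2 difference of 0.01 and did not pass.

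Of the 23 relatives and partners of the factors, 18 were tested, of which 5 were higher, 2 lower and 11 did not pass. Among all tested genes 27.1% were called higher and 10.5% lower, so these counts lay near the background. With median-of-ratios scaling 3 relatives were higher and 5 lower, against 16.1% and 16.6% of all tested genes. With quantile normalization 4 relatives were lower, and without WT replicate 3 the lower ones numbered 5. Their median log2 difference was -0.07, against 0.19 for all tested genes. *Irf8*, the partner of PU.1 in monocyte development, had 12.98, 12.0 and 10.3 FPKM in the WT-labelled libraries and 10.7, 11.4 and 20.7 FPKM in the KO-labelled ones, so KO replicate 3 stood apart. *Egr2*, an immediate early factor, had 10.03 to 12.3 FPKM in the WT-labelled libraries and 2.58, 14.5 and 13.9 FPKM in the KO-labelled ones, where KO replicate 1 stood apart. Neither passed the test. *Gfi1*, *Myb* and *Gata2*, factors of progenitors and granulocytes, had mean levels of at most 0.307 FPKM in either group and were not tested.

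**Figure D3:**
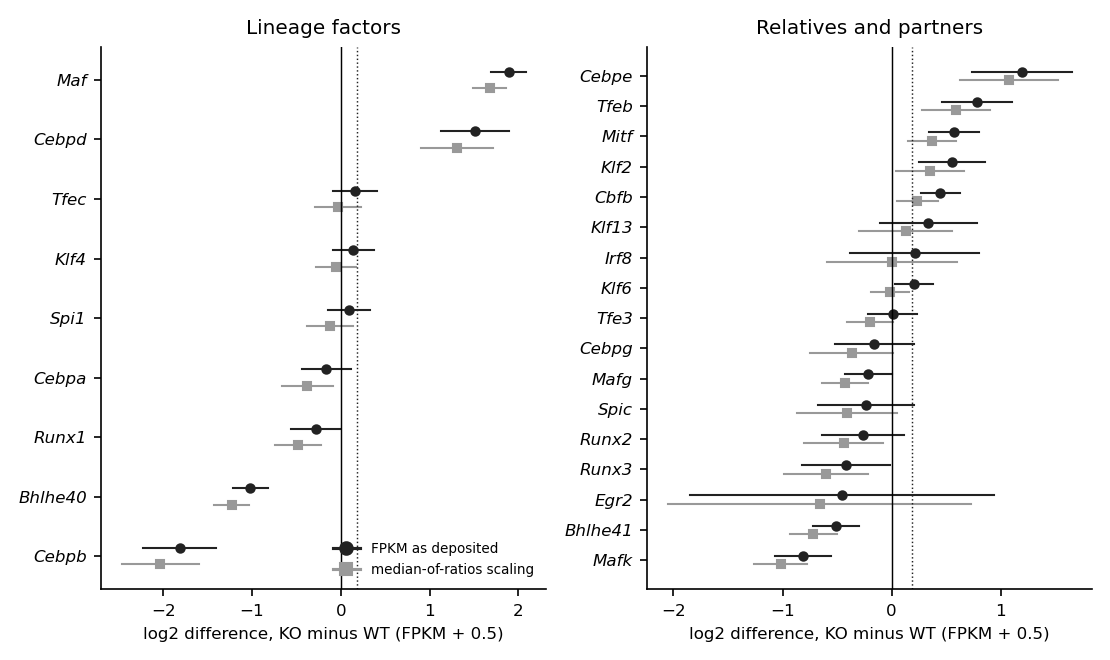
Log2 difference, KO-labelled minus WT-labelled libraries, on the log2(FPKM + 0.5) scale with 95% intervals from limma, for the 9 factors (left) and tested relatives and partners (right), with FPKM as deposited (black circles) and after median-of-ratios scaling (grey squares); the solid line is 0 and the dotted line the median of all tested genes, 0.19. *Maf* at 1.89 and *Cebpb* at -1.82 mark the ends of the left panel, and the scaling moves every gene to the left.

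The order of levels is given as a description. In the WT-labelled libraries it ran from *Cebpb* (mean 477 FPKM) over *Cebpa* (138), *Spi1* (94.8), *Bhlhe40* (26.1), *Maf* (15.7), *Runx1* (8.45), *Klf4* (5.58) and *Cebpd* (4.79) to *Tfec* (3.99). The ranges of *Klf4* and *Cebpd* and of *Cebpd* and *Tfec* overlapped, and all other neighbours were apart. Within each WT-labelled library *Cebpd* lay above *Tfec*, while *Klf4* and *Cebpd* changed order between libraries. In the KO-labelled libraries the order ran from *Cebpb* (135) over *Cebpa* (124), *Spi1* (101.3), *Maf* (59.5), *Cebpd* (14.5), *Bhlhe40* (12.7), *Runx1* (6.85) and *Klf4* (6.19) to *Tfec* (4.52). There, the range of *Cebpa* overlapped those of *Cebpb* and *Spi1*, and the range of *Cebpd* overlapped that of *Bhlhe40*. Within each KO-labelled library *Cebpa* lay above *Spi1*. *Cebpb* and *Cebpa* changed order between these libraries, as did *Cebpd* and *Bhlhe40*. *Maf*, which lay behind *Bhlhe40* in the WT-labelled libraries, lay ahead of it here.

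Genes that general knowledge links to these factors were counted beside them. The lists here and below were chosen with earlier results of these data known, so their counts are descriptions and no independent support. Over all tested genes 27.1% were called higher and 10.5% lower, with a median log2 difference of 0.19. Of 18 genes of macrophage identity, all were tested, 4 were higher, 5 were lower and 9 did not pass, with a median log2 difference of 0.08. *Csf1r*, the receptor for M-CSF and a classical PU.1 target, had 232 to 284 FPKM in the WT-labelled libraries and 268 to 293 FPKM in the KO-labelled ones and did not pass. *Lyz2*, the most abundant, had 4462 to 5731 FPKM in the WT-labelled libraries and 5881 to 6588 FPKM in the KO-labelled ones and did not pass either (adjusted p = 0.0935 from limma). The largest changes were the falls of *Cd14* (log2 difference -3.33), *Fcgr1* (-1.83) and *Cybb* (-1.02) and the rise of *Laptm5* (0.80). Leaving out a library changed these counts in both directions. The higher genes numbered 1 without KO replicate 1 or KO replicate 2, and 2 without WT replicate 1 or WT replicate 2. They numbered 3 without KO replicate 3 and 6 without WT replicate 3. The lower genes numbered 3 without WT replicate 1, KO replicate 1 or KO replicate 2. They numbered 4 without WT replicate 2 or KO replicate 3, and 5 without WT replicate 3. With median-of-ratios scaling 1 was higher and 6 were lower, against 16.1% and 16.6% of all tested genes.

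Of 12 genes linked to *Maf* in tissue macrophages, 11 were tested and 10 rose, with a median log2 difference of 1.59. The median of all tested genes was 0.19, and 27.1% of them were called higher. With median-of-ratios scaling 8 of the linked genes were higher, where 16.1% of all tested genes were. *Gas6*, the bridging ligand for dying cells, had the largest log2 difference (3.79), followed by *Mrc1*, the mannose receptor (2.96), *Cd163*, the haemoglobin scavenger receptor (2.46), and *F13a1* (2.44). *Il10*, a direct c-Maf target, had 0.121, 0.185 and 0.0424 FPKM in the WT-labelled libraries and 1.39, 1.41 and 1.23 FPKM in the KO-labelled ones. *C1qb*, the most abundant, did not pass (log2 difference 0.29, adjusted p = 0.0807 from limma).

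Of 12 inducible genes linked to the C/EBP factors, 11 were tested, of which 9 were lower and 2 higher, with a median log2 difference of -2.98. Among all tested genes 10.5% were called lower and 27.1% higher. *Saa3*, an acute phase gene, fell from 10.4 ± 2.98 to 0.257 ± 0.0681 FPKM (mean ± SD, n = 3 per group), and *Arg1*, *Nos2* and *Ptgs2* had log2 differences of -7.60, -3.53 and -3.49. *Nos2* was listed at 0 in KO replicates 1 and 3. *Pla2g7*, the most abundant, fell with a log2 difference of -1.04. *Lcn2* (2.31) and *Chil3* (0.74), which were named after their values were seen, rose instead, and *Lcn2* is also a neutrophil granule gene. Of 10 genes of the cell cycle, *Myc* included, 8 were higher and none lower in limma, against 27.1% and 10.5% of all tested genes. *Ccna2* (log2 difference 1.53), *Mcm5* (1.32), *Top2a* (1.32) and *Cdk1* (1.17) rose most, *Pcna*, the most abundant, did not pass (0.44, adjusted p = 0.0913), and *Myc*, which c-Maf is known to restrain, did not pass at 8.33 ± 1.20 and 10.4 ± 0.32 FPKM (mean ± SD, n = 3 per group, adjusted p = 0.0781).

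In 4 of the 9 factors (*Spi1*, *Cebpb*, *Cebpd* and *Tfec*) replicate 3 was the highest library in both groups, and in another 4 (*Maf*, *Klf4*, *Runx1* and *Bhlhe40*) it was the lowest in both. Over all tested genes 51.5% did one or the other. For *Cebpb*, replicate 3 lay 0.29 above the mean of its group on the log2 scale in each group. In each group replicate 3 also had the largest FPKM sum (340717 for WT and 322485 for KO). It had the fewest genes above 0 as well (20631 and 21358). Neither the labels nor the methods say that the numbers mark a common batch.

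**Figure D4:**
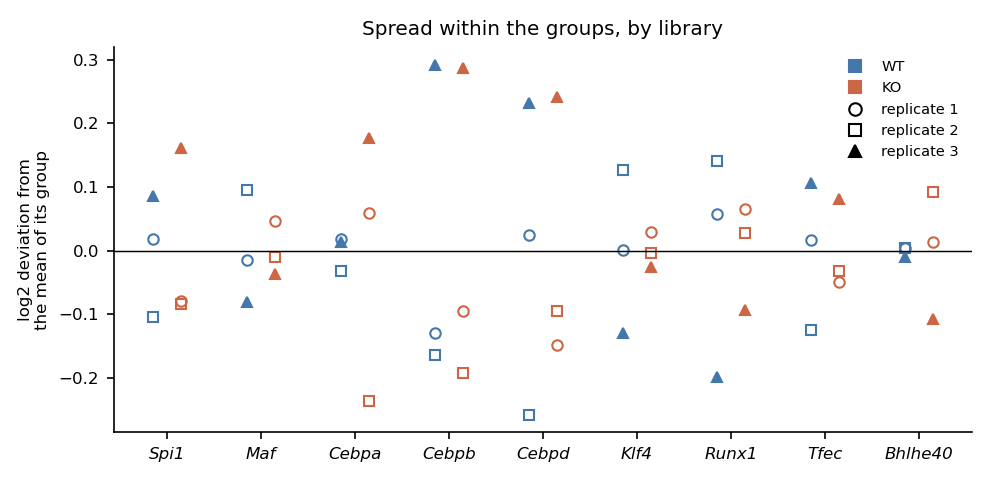
Deviation of each library from the mean of its own group on the log2(FPKM + 0.5) scale (y axis) for the 9 factors (x axis), with WT-labelled libraries in blue and the KO-labelled ones in orange; filled triangles are the replicates numbered 3, open circles and squares replicates 1 and 2. The triangles of both groups lie on the same side for *Cebpb* (0.29 in each) and *Cebpd* (0.23 and 0.24).

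For each factor, the one other gene whose pattern over the 6 libraries was most like it was found by the root mean square difference of centred log2 values. It was *Man1a* for *Maf* (0.042), *Slfn2* for *Cebpb* (0.057), *Gmfg* for *Cebpd* (0.053) and *Stx3* for *Bhlhe40* (0.031). For the factors that did not pass it was *Puf60* for *Spi1*, *Med10* for *Cebpa*, *Gna13* for *Runx1*, *Trmt13* for *Klf4* and *Rxylt1* for *Tfec*, at 0.015 to 0.033.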

How the data were processed

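The deposited table holds 1 FPKM value per library for each of 55335 mouse Ensembl identifiers, and no counts were used here. Per the labels, fastp 0.17.1, HISAT2 2.1.0, DESeq2 1.18.1 and R 3.4.3 are named in the submitters' processing notes; the quantification tool, genome build and use of strand are not given in the sources used here. The labels and methods name different extraction reagents, library kits and sequencers. Symbols and positions came from GENCODE M21 (99.7% of identifiers matched). FPKM is scaled to each library's total, so abundant genes shift all others.

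The 13367 genes that averaged 0.5 FPKM or more were tested as log2(FPKM + 0.5), which understates changes of low genes, with limma 3.58.1 in R 4.3.3 (eBayes with trend, two-sided, Benjamini-Hochberg adjustment over all tested genes), not with DESeq2, which needs counts. No pair of libraries shared an identical value above 1 FPKM. Depth is not known directly: in genes with 1 transcript, FPKM times length piled up at steps that imply 17680700 to 20300200 fragments per library, but a share of only 37.3% to 40.5% of low values was within 0.1 of whole (20% by chance), so reads were not recovered. P-values measure the spread between these libraries, since nothing states that they came from separate cultures.

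Factors and gene lists were chosen with earlier results of these data known. The lists were drawn from general knowledge; in each, the 4 largest called changes without group overlap and the most abundant gene are named, in marker lists genes among the 3 most abundant and *Ly6g*, and relatives of the factors freely. *Il10*, *Csf1r*, *Myc*, *Mmp8*, *Dcn*, *Xcr1*, *Ccr7* and the markers at or near 0 were named outside this rule, after their values were seen. Some listed genes, and a planned ratio that needs one, are not reported here. The limma step was tested on simulated data. Python 3.11.15 with pandas 2.3.3, scipy 1.17.1 and matplotlib 3.10.9 was used for the rest. The alternatives were other pseudocounts, filters, scalings, variance estimates and thresholds, the replicate number as a block, and each library left out.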

Additional observations from a re-analysis of the deposited data

How the results depend on the processing

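*Maf* and *Cebpd* stayed higher and *Cebpb* and *Bhlhe40* lower, at an adjusted p-value of at most 0.0038 from limma, under all 18 other fits, including each library left out in turn. The signs of the factors that did not pass depended on scaling: with median-of-ratios scaling *Spi1* was at -0.12, *Klf4* at -0.057 and *Tfec* at -0.031 (log2), and with quantile normalization *Klf4* was at -0.030 and *Tfec* at -0.038. *Runx1* was called lower with either of these scalings and without WT replicate 3; over all fits its adjusted p-value was at most 0.25. Requiring a mean of 5 FPKM removed *Tfec* and left 2739 called genes of 6835 tested. Of the 13367 genes of the main fit, an adjusted p-value under 0.01 from limma gave 2929 and the threshold of the study 1485, against 5027. With each library left out between 3479 and 5966 genes were called. With the replicate number as a block, 5934 genes were called and *Runx1* among them (adjusted p = 0.0469); deviations of same-numbered libraries correlated at 0.116, 0.036 and 0.264, so the numbers were not taken to pair the libraries, and not every library correlated best with its own number. The log2 ratio of *Cebpb* to *Cebpa* moved by less than its spread with the other pseudocounts and with each library left out. FPKM carry no counts, which limits statements on genes below 0.5 FPKM.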
